A study of Mus musculus with 195 samples.

Results

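Genomic imprinting is the expression of a gene from only the maternal or only the paternal chromosome, set by DNA methylation that differs between egg and sperm and is copied at each cell division. Imprinted genes lie in clusters, and many act on growth, the placenta or the developing brain. Embryonic stem cells are known to lose or gain these methylation marks in culture, and a change of the mark can silence a gene or double its dose. The counts described here do not tell the alleles apart, so only the summed output of both chromosomes of each gene is given.

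Expression of 32 imprinted genes was examined in single mouse cells sequenced by BATSeq, which counts transcript molecules at their 3′ ends by unique molecular identifiers (UMIs). The genes were taken from a list of known imprinted genes, by a rule that uses no measured value, although earlier results of these data were known when it was drawn up. Of the 32, 24 had a row in the table of 19736 genes and 8 had none (H19, Igf2, Usp29, Kcnq1ot1, Plagl1, Peg13, Nnat and Magel2). Over the 3 populations, 11 genes had at least 20 molecules and are described in full, and 13 had fewer and are given by their counts. The 24 genes together had 1091 molecules.

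The cells were a 46C line derived from E14tg2a embryonic stem cells, sorted by FACS for small size and G0/G1 DNA content. ESC-2i cells were grown with 1 μM of the MEK inhibitor PD0325901, 3 μM of the GSK3 inhibitor CHIR99021 and LIF at 10 ng/ml. ESC-FCS cells were grown with 10% serum (FCS) and the same LIF. The neural stem cells (NSC) were derived from embryonic stem cells, with a sort for GFP. They were kept on laminin in N2 and B27 medium with EGF and bFGF at 10 ng/ml. The serum-free ESC-2i medium also held N2 and B27. For each population 48 cells were prepared in 2 library batches. Used were 33 ESC-2i cells, 33 ESC-FCS cells and 41 NSC, all with at least 1000 molecules on genes. Apart from these, 48 ESC-FCS control cells (42 used), 1 pool of 48 ESC-FCS cells and 2 pools of 48 ESC-2i cells each were sequenced. RNA was purified only for the ESC-2i pools, whereas all other cells were lysed without extraction.

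Depth differed between the populations. ESC-2i cells had 5342 to 21050 molecules on genes with a median of 10864, ESC-FCS cells 1079 to 14819 with a median of 6375, and NSC 1234 to 9037 with a median of 3282. Levels are therefore given as molecules per 10000 molecules on genes, summed over the cells of a population, with an exact Poisson interval of 95% that covers counting error only. A count of 0 allows, at 3 counts per population, a level of up to 0.0814 for ESC-2i, 0.132 for ESC-FCS and 0.198 for NSC. No replicate culture is named in the labels. Each population is thus 1 sample, no p-value between populations is given, and a difference cannot be told apart from one between cultures. The same 24 cell barcodes were used in all 6 library batches. In summed counts, fewer expressing cells and less RNA per cell cannot be told apart, and the values per cell are given for that reason. The pluripotency markers, Nanog and Tfcp2l1 among them, summed to 33.3 per 10000 in ESC-2i and 22.7 in ESC-FCS, while 6 of 8 were at 0 in NSC. Neural stem markers, led by Fabp7, reached 50.4 per 10000 in NSC against 1.93 in ESC-2i and 1.63 in ESC-FCS. Of these 8 markers 1 was at 0 in NSC, Pax6, which had 0 molecules in ESC-2i and 4 in ESC-FCS. In the order ESC-2i, ESC-FCS, NSC, fibroblast markers had 1, 0 and 2 molecules and primitive endoderm markers 1, 1 and 0. Mesoderm markers had 14, 2 and 0 molecules and trophoblast markers 33, 9 and 1 (Tfap2c in the stem cells and Elf5 in NSC, with Cdx2 at 0). Neuron markers had 100, 115 and 66 molecules, or 2.71, 5.07 and 4.35 per 10000. Of these, Stmn2 had 93, 100 and 0 molecules, Map2 0, 6 and 59, Tubb3 7, 9 and 5, Dcx 0, 0 and 2, and Snap25 none.

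The molecules were counted at the polyadenylation site. The most used sites of part of the imprinted genes are shown first because they identify the transcript end behind each level, and those of Impact, Zdbf2 and Ube3a are left out. Each sequence below is the last 30 bases of the transcript before the site, 5′ to 3′ on the strand of the gene, from GENCODE M21 transcripts on GRCm38. Capitals mark a hexamer that directs cleavage, AATAAA or, in its most common variant, ATTAAA. Whether the deposited positions count from 0 or from 1 is not stated in the sources used here.
Gnas, chr2:174346707-174346736, + strand: agcattaaaaaatcAATAAAaattaaaaat
Meg3, chr12:109571688-109571717, + strand: gctcatggtgctttcAATAAAtttcttgtt
Peg10, chr6:4760482-4760511, + strand: aaattcaataAATAAAgacttagtggttaa
Cdkn1c, chr7:143458349-143458378, - strand: cgtccgccaggttctaAATAAAgaggccca
Phlda2, chr7:143501551-143501580, - strand: tccaAATAAAcaatgtcacttttctttttt
Snrpn, chr7:59983118-59983147, - strand: taactatagatAATAAAtacatagagcaat
Mcts2, chr2:152687908-152687937, + strand: tggttatgctgAATAAAttcaacaaatacc
Slc38a4 outer site, chr15:96994820-96994849, - strand: gtatataataAATAAActtttcaaatgatg
Slc38a4 inner site, chr15:96996770-96996799, - strand: atgcATTAAAaattctgtggcacacatttt

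The hexamer AATAAA was in the window of 68.4% of the 5674 genes with at least 20 molecules whose most used site could be placed on a transcript, and 83.6% held AATAAA or ATTAAA. Most of these sites were sharp. At a single site lay 95.5% of the Meg3 molecules (exact interval 88.9 to 98.8), 94.7% of Cdkn1c, 100% of the 29 Phlda2 molecules, 95.5% of Peg10, 90.6% of Impact and 87.8% of the 425 Gnas molecules. Gnas, Meg3, Peg10, Cdkn1c and Phlda2 ended 6 to 10 bases before the annotated end of the gene. Over all 24 genes, 65.1% of molecules lay within 10 bases of an annotated transcript end, against 57.3% over all genes. The most used Snrpn site lay 623 bases before the annotated gene end, within the terminal exon, and held 87.5% of 88 molecules. Mcts2 had 53.8% of its molecules at the site shown, and Zdbf2, with 9 sites, had 38.1% at its most used one. Ube3a was spread over 24 sites, of which the most used, 706 bases before the gene end, held 19.7% of 61 molecules. Of the windows left out above, that of Zdbf2 held AATAAA, and that of Impact was not taken. The most used Ube3a site had ATTAAA and that 4809 bases before the gene end AATAAA. The Ube3a site 3 bases before the gene end, with 10 molecules, had neither hexamer.

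Among the single cells, the summed level of the imprinted genes was lowest in ESC-2i and highest in NSC. ESC-2i stood at 6.73 per 10000 (5.92 to 7.62), ESC-FCS at 19.2 (17.4 to 21.1) and NSC at 26.9 (24.3 to 29.6). Gnas alone made most of the NSC value: without it ESC-2i stood at 5.10, NSC at 8.23 and ESC-FCS at 15.6, the highest. The ESC-2i pools, from the same medium, stood at 19.2 (18.3 to 20.1), above the ESC-2i cells and level with ESC-FCS, and at 16.6 without Gnas. Every cell had a molecule of at least 1 of the genes. The median cell showed 4 imprinted genes under 2i, 6 under serum and 3 among the shallower NSC. Single cells overlapped between populations: the summed level ran from 0.549 to 14.0 (median 6.52) over ESC-2i cells, from 10.7 to 47.4 (median 18.0) over ESC-FCS cells and from 7.10 to 54.5 (median 26.1) over NSC. Of the 11 genes given in full, each had at least 1 cell without a molecule in every population, so the values per cell overlapped for all of them.

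**Figure D1:**
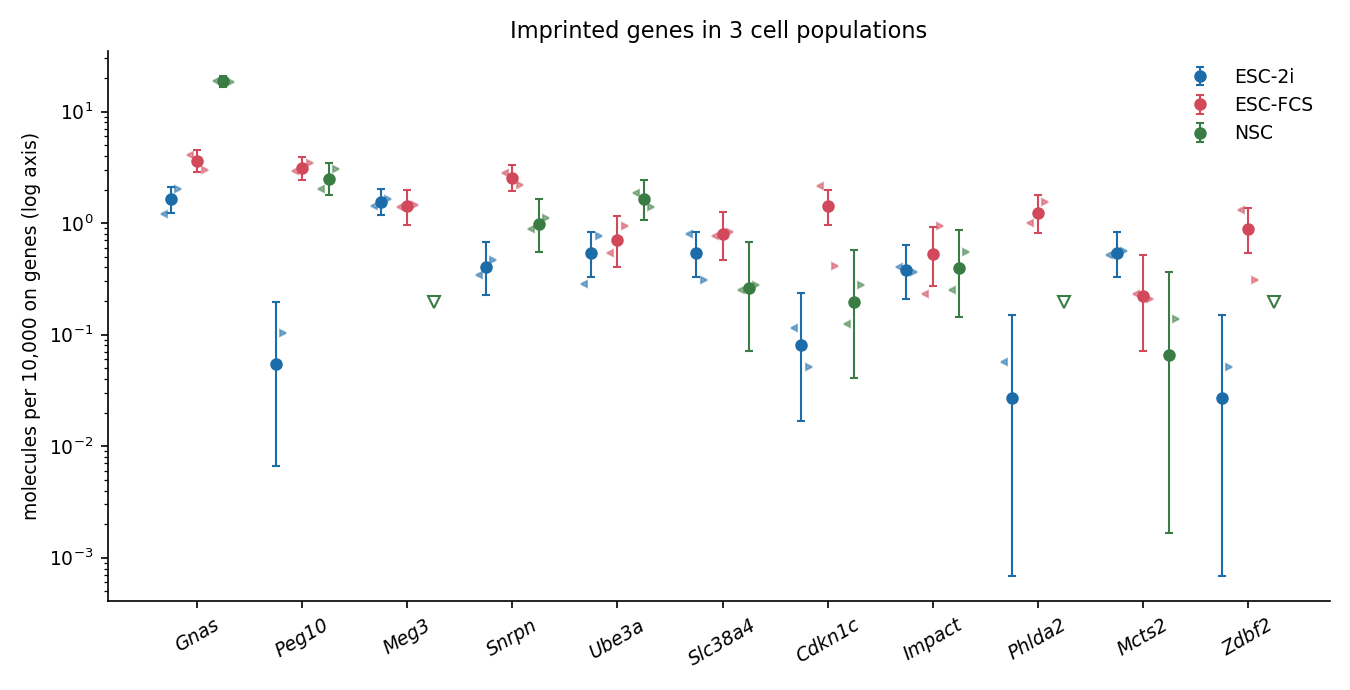
Level of the 11 imprinted genes with at least 20 molecules, in molecules per 10000 on genes (log axis), in ESC-2i, ESC-FCS and NSC. Circles are the pooled cells with exact Poisson intervals of 95%, small left and right triangles are library batches 1 and 2, and open triangles mark the upper limit for a count of 0; Gnas stood at 18.6 in NSC, and Meg3, Phlda2 and Zdbf2 had no molecule there.

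To compare populations, ratios of pooled levels were computed for all genes with at least 10 molecules in both populations together, and a gene was counted as past the fold at 2-fold or more. Between ESC-FCS and ESC-2i, 14 of the 32 imprinted genes met this minimum. Of these, 8 were higher in ESC-FCS, where 11.1% of all genes tested were, and 1 was lower, where 17.7% were. Their median log2 ratio was 1.90, against -0.09 for all genes tested. Scaled to the ERCC spike-ins, which moved the median of all genes to 0.95, 12 were higher and 0 lower, against 48.6% and 4.37% of all genes. Higher genes then made up 91.7% of all genes past the fold in place of 38.5%. Each of the 9 kept its direction in all 4 pairs of library batches. These batches make up the sums by which the 9 were picked, so this is no separate support. The matching share over all genes was not computed. A gene with few molecules in one population can meet the minimum only through the other, so these counts describe the genes that met it and not all 32.

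The genes with the largest ratios were Peg10, Phlda2, Zdbf2 and Cdkn1c. Peg10, a paternally expressed gene derived from a retrotransposon and needed for placenta formation, had 2 molecules in ESC-2i, in 2 of 33 cells, and 71 in ESC-FCS, in 18 of 33 cells with a median of 1 and up to 12. Its level was 0.0543 per 10000 in ESC-2i (0.00658 to 0.196) and 3.13 in ESC-FCS (2.45 to 3.95), a ratio of 57.7 (counting interval 15.4 to 486). In NSC it was 2.50 (1.77 to 3.43), with 38 molecules in 23 of 41 cells and at most 5 per cell. ESC-FCS and NSC did not differ beyond their intervals (ratio 0.80, 0.524 to 1.20). Sgce, which codes for epsilon-sarcoglycan and is transcribed from the same region in the opposite direction, had 4 molecules in ESC-2i and 2 in each other population. Asb4, further along the same cluster, had 0, 1 and 0.

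Phlda2, a maternally expressed gene that restrains growth of the placenta, was nearly absent from the ESC-2i libraries. It had 1 molecule in 1 of 33 ESC-2i cells and 28 in 15 of 33 ESC-FCS cells, at most 4 per cell. Both ESC-FCS batches held it, with 13 and 15 molecules. The ratio of ESC-FCS to ESC-2i was 45.5, with a wide counting interval from 7.52 to 1861 since it rests on 1 molecule in ESC-2i. In NSC there was none. With this 0 set to 3 counts NSC was 6.25-fold lower than ESC-FCS (counting interval from 4.76-fold lower).

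Cdkn1c, which lies near Phlda2 in the same maternally expressed cluster and codes for the cell cycle inhibitor p57, had 32 molecules in ESC-FCS and 3 in each other population. The ratio of ESC-FCS to ESC-2i was 17.3 (5.42 to 88.5), and NSC was 7.15-fold lower than ESC-FCS (2.24 to 36.5). However, the ESC-FCS batches differed: batch 1 had 28 molecules, in 14 of 19 cells, a level of 2.15 (1.43 to 3.11), and batch 2 had 4, in 3 of 14 cells, a level of 0.415 (0.113 to 1.06). The 2 intervals do not overlap. Without batch 1 the log2 ratio to ESC-2i was 2.35. Cells with Cdkn1c had a median depth of 4706 molecules and those without it 7157. Cdkn1c and Phlda2 were seen together in 7 ESC-FCS cells, of 17 cells with Cdkn1c and 15 with Phlda2.

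**Figure D2:**
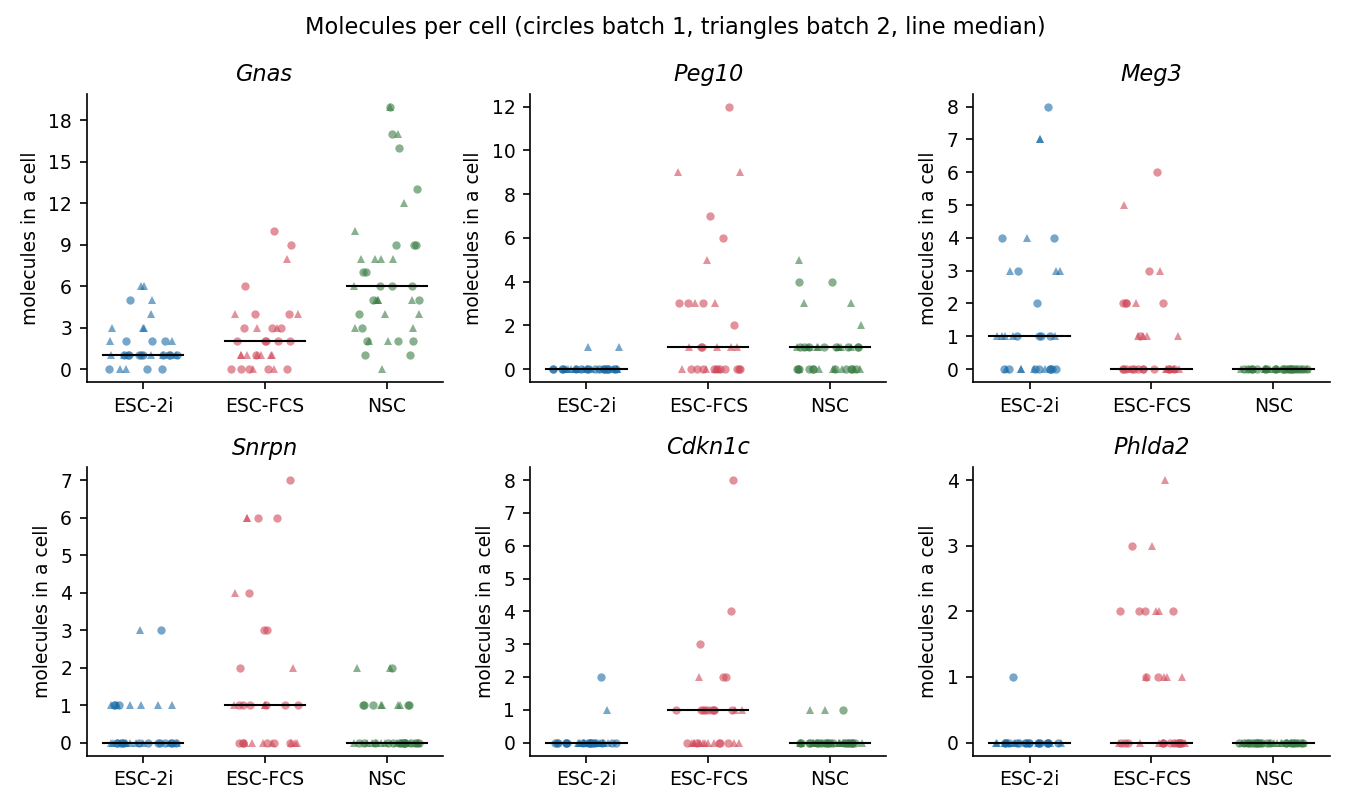
Molecules per cell of 6 imprinted genes in ESC-2i (33 cells), ESC-FCS (33 cells) and NSC (41 cells), with circles for library batch 1, triangles for batch 2 and a line at the median. Gnas reached 19 molecules in a cell in NSC; Peg10, Cdkn1c and Phlda2 were in at most 2 of 33 ESC-2i cells each, and Meg3 and Phlda2 were in no NSC cell.

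The next genes are paternally expressed except Grb10. Snrpn, whose product is a component of the spliceosome, had 15 molecules in 11 ESC-2i cells, 58 in 20 ESC-FCS cells and 15 in 12 NSC cells. Its level was 0.407 (0.228 to 0.672) under 2i, 2.56 (1.94 to 3.31) under serum and 0.988 (0.553 to 1.63) among NSC. ESC-FCS was 6.28-fold above ESC-2i (3.51 to 11.9) and NSC was 2.43-fold above it (1.10 to 5.32). Ndn, which codes for a melanoma antigen family protein of neurons in the same cluster, had no ESC-2i molecule, 5 in ESC-FCS and 10 in NSC. With the 0 set to 3 counts NSC was 8.08-fold above ESC-2i (counting interval from 5.44-fold). All 5 ESC-FCS molecules of Ndn came from batch 1. Zdbf2, a zinc finger protein, had 1 ESC-2i molecule, 20 in ESC-FCS (17 in batch 1 and 3 in batch 2) and none in NSC, a ratio of 32.5 (5.20 to 1347) of ESC-FCS to ESC-2i. Mest, which codes for a hydrolase-like protein, had 3, 14 and 0 molecules and was 7.58-fold higher in ESC-FCS than in ESC-2i (2.12 to 41.2). Grb10, an adaptor that dampens insulin and IGF signalling and is expressed from the maternal allele in most tissues, had 3, 15 and 0 molecules, with a ratio of 8.13 (2.30 to 43.8).

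Gnas was highest in the neural cells. The locus codes for the stimulatory G protein subunit Gsα and for further transcripts from imprinted promoters, and these share a 3′ end and were counted together. It had 60 molecules in 28 of 33 ESC-2i cells, 82 in 26 of 33 ESC-FCS cells and 283 in 40 of 41 NSC cells. The median ESC-2i cell held 1 molecule (highest 6), the median ESC-FCS cell 2 (highest 10) and the median NSC 6 (highest 19). As levels, ESC-2i stood at 1.63 (1.24 to 2.10), ESC-FCS at 3.62 (2.88 to 4.49) and NSC at 18.6 (16.5 to 20.9). The 3 intervals do not overlap. In NSC both batches were alike, at 18.7 and 18.6. With every cell thinned to 2000 molecules, Gnas was in 21.2% of ESC-2i cells (exact interval 8.98 to 38.9), 53.1% of ESC-FCS cells (34.7 to 70.9) and 97.0% of NSC cells (84.2 to 99.9). Without thinning the shares were 84.8%, 78.8% and 97.6%. Thinning left out 1 ESC-FCS and 8 NSC cells, which had fewer than 2000 molecules.

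Between NSC and ESC-FCS, 14 imprinted genes met the minimum, of which 4 were higher in NSC and 8 lower. Over all genes tested, 25.1% were higher and 21% lower. With spike-in scaling, which moved the median of all genes to -1.25, 1 was higher and 10 lower, against 7.79% and 58.0% of all genes. Without ESC-FCS batch 1, 2 were higher and 5 lower of the 9 that still met the minimum, against 30.2% and 17.0%. The 4 higher genes were Gnas at 5.15-fold (4.02 to 6.67), Ube3a at 2.33-fold (1.20 to 4.67), Ndn at 2.99-fold (0.93 to 11.1) and Peg3 at 2.69-fold (0.809 to 10.2). The intervals of the last 2 include 1. Ube3a, an E3 ubiquitin ligase that is imprinted in neurons, had 20, 16 and 25 molecules in the populations, and its order between NSC and ESC-FCS turned when levels were scaled to the spike-ins (log2 ratio -0.12). Peg3, a zinc finger protein, had 2, 5 and 9 molecules. The 8 lower genes were Meg3, Mest, Cdkn1c, Phlda2, Grb10, Snrpn, Zdbf2 and Slc38a4, the last with an interval of 0.993 to 12.2-fold lower that includes 1. Meg3, Mest, Phlda2, Grb10 and Zdbf2 had 0 molecules in NSC, the shallowest population, set to 3 counts. They met the minimum only through ESC-FCS, and at 0 they could not come out higher in NSC, so the counts describe only the genes that met it. Between NSC and ESC-2i, 10 genes met the minimum, and 6 were higher (22.9% of all genes) and 3 lower (23.4%). With spike-in scaling 5 were higher and 3 lower, against 16.1% and 31.2% of all genes. The higher genes were Gnas at 11.4-fold (8.63 to 15.4), Peg10 at 46.1-fold (11.9 to 394), Peg3, Snrpn, Ndn and Ube3a. The lower ones were Meg3, Mcts2 and Slc38a4, whose interval of 0.691 to 8.29-fold lower includes 1. Ndn had 0 molecules in ESC-2i and Meg3 0 in NSC, each set to 3 counts, so each met the minimum only through the other population.

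The maternally expressed noncoding RNAs of the Dlk1-Dio3 region on chromosome 12 were seen in stem cells of both media. Meg3, the first of the 3, is a marker of developmental potential in stem cells. It had 57 molecules in 20 of 33 ESC-2i cells, with up to 8 in one, and 32 in 14 of 33 ESC-FCS cells, with up to 6. Its levels, 1.55 (1.17 to 2.01) and 1.41 (0.966 to 1.99), did not differ beyond their intervals (ratio 0.91, 0.572 to 1.43). No molecule was seen in 41 NSC cells. With this 0 set to 3 counts the level was 7.83-fold lower than in ESC-2i (counting interval from 6.17-fold lower). Mirg, at the far end of the region, had 8, 8 and 0 molecules, and Rian, between them, 1, 6 and 1. All 5 ESC-2i cells with Mirg and 6 of 7 such ESC-FCS cells also had Meg3. Cells with Meg3 were deeper, with a median of 12138 molecules against 7519 without it in ESC-2i, and 9902 against 4648 in ESC-FCS. Dlk1, the paternally expressed Notch ligand of the region, had 0, 1 and 4 molecules.

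Mcts2, a paternally expressed retrogene inside an intron of H13, was the only one of the 14 genes past the fold in the other direction, with 20 molecules in 16 ESC-2i cells, 5 in 5 ESC-FCS cells and 1 in NSC; counted in reads it was not past the fold. ESC-2i was 2.46-fold above ESC-FCS, with an interval from 0.896 to 8.39 that includes 1. H13 itself, a signal peptide peptidase, had 15, 8 and 36 molecules, and 89.8% of them ended at a single site, 3621 bases before the annotated gene end and beyond Mcts2. Slc38a4, an amino acid transporter, had 20, 18 and 4 molecules, and the stem cell levels of 0.543 and 0.794 did not differ beyond their intervals, although in the libraries made apart ESC-FCS was 2.26-fold lower (1.61 to 3.25). Impact, a regulator of the translational stress response, stood at 0.380, 0.529 and 0.395 per 10000 in the populations, with intervals that overlap. Of the genes with fewer molecules, Igf2r, the receptor that clears IGF2, had 8 molecules in ESC-2i and 1 in each other population, and Airn, the noncoding RNA that silences it, had 5, 2 and 3. Zim1 had 1 molecule in each population, and Zrsr1, a retrogene inside Commd1, had 2 molecules in NSC and none in the stem cells.

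The libraries made apart from these cells gave other values for several of the genes, and for ESC-2i the gap was large. Between the 42 ESC-FCS control cells and the main ESC-FCS cells, 15 imprinted genes met the minimum, and 2 were past the fold, Impact at 2.20-fold higher (1.07 to 4.79) and Cdkn1c at 3.50-fold lower (1.63 to 8.33) in the control cells; over all genes 30.3% were past it. The ESC-FCS pool and the control cells, made on the same day, were also close: of 14 genes 2 were past the fold upwards in the pool (Igf2r and Peg3, with 9 and 11 molecules) and 1 downwards (Zdbf2), where over all genes 15.2% and 6.78%, together 21.9%, were. Between the ESC-2i pools and the ESC-2i cells, 10 of 19 genes were higher in the pools and 3 lower, with 36.1% and 16.9%, together 53%, over all genes. The 2 pools differed from each other in 4 of 18 genes, with Impact, Zdbf2 and Peg3 higher and Mcts2 lower in the second, against 10.1% higher and 11.6% lower, together 21.6%, over all genes. From the ESC-2i cells to their pools, the median log2 ratio was 1.47 for the imprinted genes and 0.57 for all genes tested. Cdkn1c had 247 and 306 molecules in the 2 pools, a level of 5.68 per 10000 (5.21 to 6.17) against 0.0814 (0.0168 to 0.238) in the single cells, 69.7-fold higher (23.7 to 339). Peg10 had 99 and 77 molecules in the pools and was 33.3-fold higher there (9.07 to 277). Ndn, with 29 and 24 molecules, was 6.68-fold higher with the 0 of the single cells set to 3 counts (counting interval from 5.25-fold). Mest stood 8.19-fold, Grb10 6.81-fold, Snrpn 4.31-fold and Slc38a4 4.14-fold higher in the pools, whereas Meg3 was 2.90-fold and Mcts2 4.81-fold lower. Phlda2 was low in both, with 1 molecule of 974282 in the pools. Of the 8 pluripotency markers, 2 were lower and none higher in ESC-FCS than in ESC-2i cells, whereas between the libraries made apart 7 met the minimum, with 2 higher in ESC-FCS and 3 lower. The pools also differed from the cells in their RNA purification, which cannot be told apart from the other differences between these libraries.

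ESC-FCS and ESC-2i were also compared within the libraries made apart, a comparison added after the data had been seen. The ESC-FCS control cells and pool were set against the ESC-2i pools. Only the ESC-2i pools had purified RNA, and most ESC-FCS libraries were single cells. An effect of the medium cannot be told apart from these differences here. All genes tested had a median log2 ratio of -0.44 there, and 20.7% were higher, 34.3% lower and 55% past the fold in either direction. Of the imprinted genes 20 met the minimum, 7 of them higher in ESC-FCS and 5 lower. Of the 9 imprinted genes past the fold in the main cells, 7 had the same direction and 4 were again past the fold in it. How many of all genes past the fold in the cells did the same was not computed. The 4 imprinted genes were Phlda2 at 177-fold (30.8 to 7079), Snrpn at 2.51-fold (2.02 to 3.11), Peg10 at 2.20-fold (1.77 to 2.74) and Grb10 at 2.20-fold (1.46 to 3.30). The Snrpn counts include a site 12918 bases beyond its annotated end. That site held 23 of 100 molecules in the control cells, 17 of 77 in the ESC-FCS pool and 8 of 171 in the ESC-2i pools. The Snrpn ratio without that site was not computed. Gnas, at 1.77-fold, Zdbf2, at 1.92-fold, and Mest, at 1.23-fold, stayed on the same side but within the fold. Cdkn1c turned, at 17.6-fold lower in ESC-FCS (10.2 to 33.2), and Mcts2 turned to 1.98-fold higher (0.726 to 5.26). Of the genes within the fold between the single cells, Impact was 3.39-fold (2.15 to 5.39) and Meg3 2.84-fold (1.93 to 4.20) higher in ESC-FCS here, and Slc38a4 was 2.26-fold lower (1.61 to 3.25). The ESC-FCS level of Cdkn1c was 0.403 in the control cells and 0.223 in the pool, near that of batch 2 of the main cells.

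**Figure D3:**
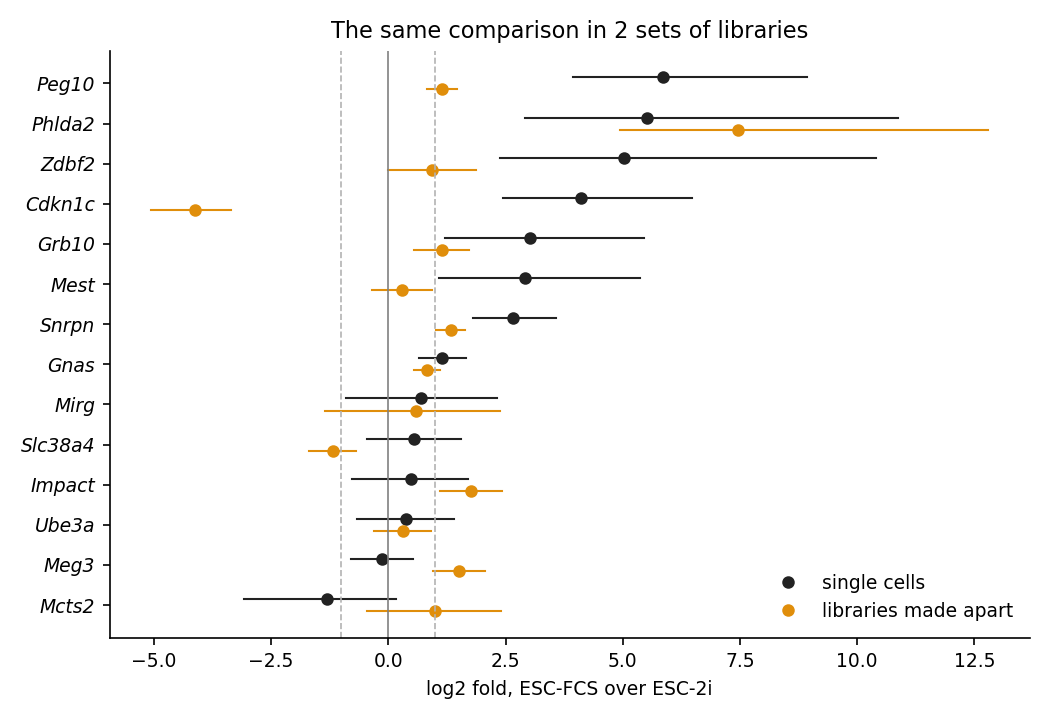
Log2 ratio of ESC-FCS to ESC-2i for the 14 imprinted genes with at least 10 molecules in the main cells. Lines are counting intervals of 95%, and dashed lines mark a 2-fold difference. In the libraries made apart, medium cannot be told apart from RNA purification, done only for the ESC-2i pools. Black points compare the single cells and orange points the libraries made apart; Phlda2, Peg10, Snrpn and Grb10 were past the fold in both, and Cdkn1c, at 17.3-fold higher and 17.6-fold lower, lay on opposite sides of 0.

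Variation between the cells of a population was tested for all genes by the method of Brennecke and colleagues, which asks whether the squared coefficient of variation (CV2) exceeds the technical noise of the ERCC spike-ins by a margin of 0.25, at a Benjamini-Hochberg adjusted p of 0.1 over all genes with a normalised mean above 0.5. The cells are the units, so the p-value concerns these cells. In ESC-2i 5 imprinted genes met the mean and none was called (0.719% of all genes tested were), with none at an unadjusted p below 0.05 either. In NSC 2 met it, Gnas and Peg10, and none was called (2.16%), again with none below 0.05 unadjusted. In ESC-FCS 2 of 8 were called (3.85%), Phlda2, whose CV2 was 4.37 where the technical value was 1.49 (Brennecke test, adjusted p = 0.000279) and Peg10 with 1.83 against 0.772 (adjusted p = 0.0935). On simulated data the test also made false calls in ESC-FCS. A cell with 2247 molecules held 3 of Phlda2. Without cells under 3000 molecules, a limit chosen after the data had been seen, Phlda2 was not called and Peg10 and Mest were. Phlda2 was also not called without batch 2. The Peg10 call was lost with a margin of 0.5, with all spike-in species, without batch 1 and with size factors from the molecules on genes. Meg3 in ESC-2i had a CV2 of 1.53 against 0.843 (unadjusted p = 0.0643 by the Brennecke test) and was called only with a margin of 0. Gnas, not called in any population, had a CV2 of 0.683 against 0.741 under 2i, 0.702 against 0.671 under serum and 0.388 against 0.254 among NSC. Cdkn1c in ESC-FCS was not called either, with 2.13 against 1.45.

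**Figure D4:**
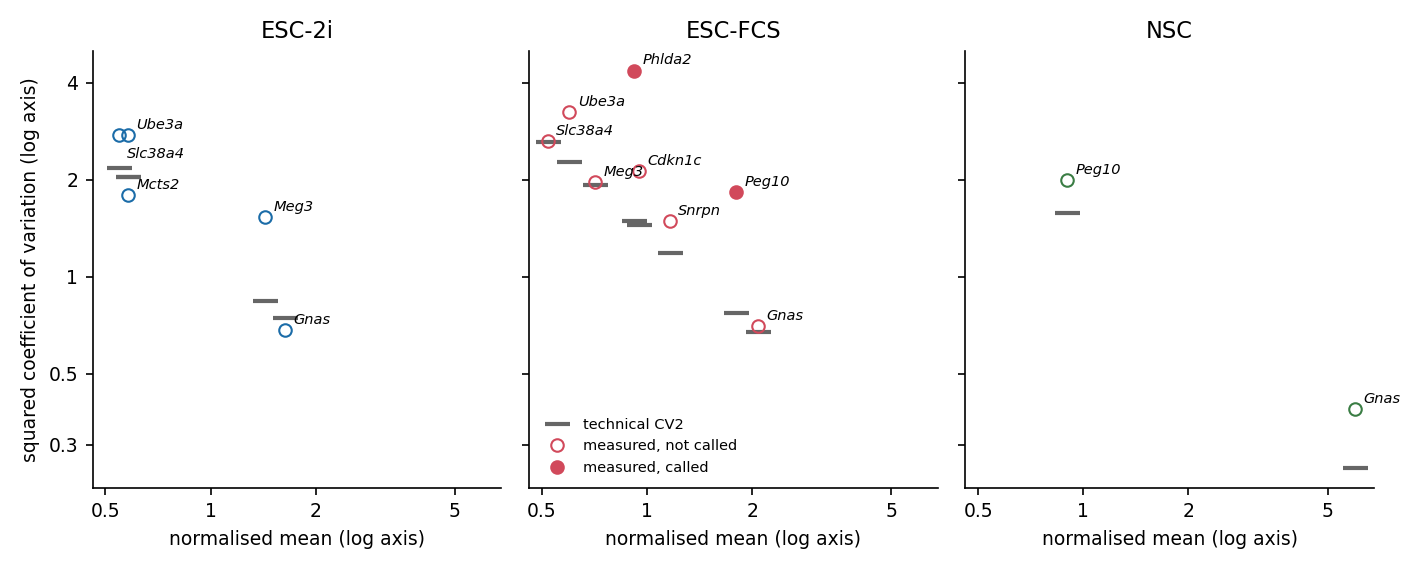
Squared coefficient of variation between cells against the normalised mean (both log axes) of the imprinted genes that met the mean in ESC-2i, ESC-FCS and NSC. Circles are measured values, filled where the Brennecke test called them, and grey bars are the technical CV2 at the same mean; Phlda2 and Peg10 in ESC-FCS were the called genes.

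Slc38a4 ended at 2 sites, whose sequences are given above. The outer one lies at the annotated gene end, and the inner one, 1950 bases before it, holds ATTAAA in place of AATAAA. The inner site had 12 of 20 molecules in ESC-2i, 6 of 18 in ESC-FCS and 2 of 4 in NSC. In percent this was 60.0 (exact interval 36.1 to 80.9) in ESC-2i and 33.3 (13.3 to 59.0) in ESC-FCS, and the intervals overlap. In the ESC-FCS control cells it was 26.3% of 19 molecules (9.15 to 51.2) and in the ESC-FCS pool 23.8% of 21 (8.22 to 47.2). The ESC-2i pools had 88.6% of 219 molecules (83.6 to 92.5) at the inner site, above the intervals of all ESC-FCS libraries and also above that of the ESC-2i cells. Snrpn had a further site 12918 bases beyond its annotated end, assigned to it in the deposited counts. That site held 23.0% of 100 molecules in the ESC-FCS control cells (15.2 to 32.5), 22.1% of 77 in the ESC-FCS pool and 8.62% of 58 in the main ESC-FCS cells (2.86 to 19.0), against 0 of 15 in ESC-2i and 4.68% of 171 in the ESC-2i pools (2.04 to 9.01). With the 15 molecules of ESC-2i a share of up to 21.8% is allowed.

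**Figure D5:**
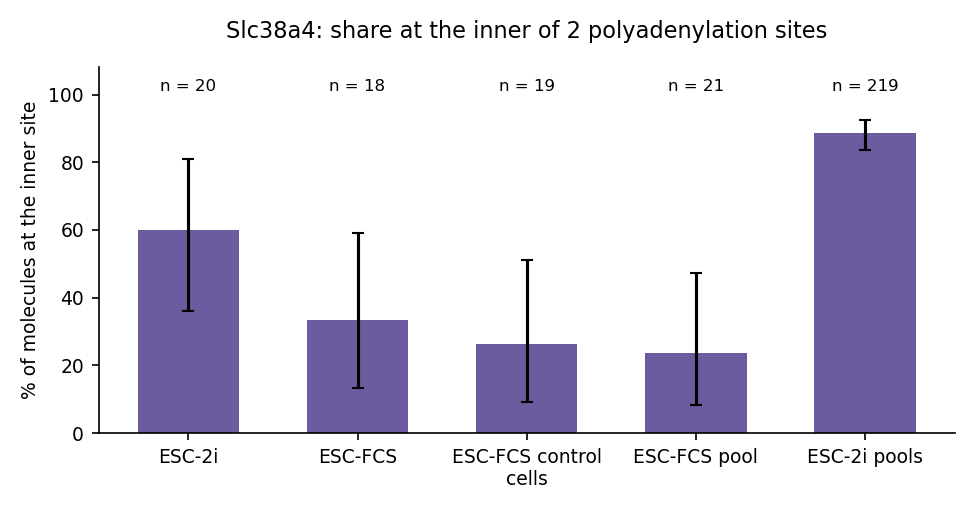
Share of Slc38a4 molecules at the inner of its 2 polyadenylation sites, in percent, with exact intervals of 95% and the number of molecules above each bar, in 5 sets of libraries. The ESC-2i pools stood at 88.6% and the 3 ESC-FCS sets between 23.8 and 33.3%; NSC, with 4 molecules, is not drawn.

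A list of 16 factors linked to the setting, keeping, reading or removal of DNA methylation marks was also read, with Tet1, Tet2 and Tet3 for removal. Of these, 15 met the minimum between ESC-FCS and ESC-2i, and 4 were higher in ESC-FCS and 2 lower, where 11.1% and 17.7% of all genes were. Their median log2 ratio was 0.26 against -0.09. Trim28, the corepressor that holds the marks in the early embryo, stood at 11.1 per 10000 in ESC-2i, at 13.4 in ESC-FCS and at 5.60 in NSC. Hells, a chromatin remodeller needed for DNA methylation, had 2.12, 5.29 and 0.922, and Uhrf1, which recruits Dnmt1 to newly copied DNA, 4.23, 1.54 and 0.461. In the libraries made apart all 3 had the other order between the media: Trim28 stood at 14.0 under serum and 25.1 under 2i, Hells at 4.18 and 7.76, and Uhrf1 at 3.38 and 2.88. Of the whole list 15 met the minimum there, 5 of them higher in ESC-FCS and 1 lower. Over all genes 20.7% were higher there and 34.3% lower. The median log2 ratio of the list was 0.44 there, against -0.44 for all genes. In NSC 10 of 14 were lower than in ESC-FCS and 2 higher, where 21% and 25.1% of all genes were. Of 41 further genes of imprinted regions, 10 met the minimum between the stem cell media, none was higher in ESC-FCS and 2 were lower, a share near the 17.7% of all genes. The 3 with the most molecules were, in the same order of populations, Cd81 with 111, 40 and 38, Nap1l4 with 46, 27 and 27, and Wars with 48, 13 and 28. Between NSC and ESC-FCS 4 of 8 were higher and 1 lower, where 25.1% and 21% of all genes were. Of 7 host or neighbour genes of imprinted retrogenes, 6 met the minimum between the media, 1 of them higher in ESC-FCS, against 11.1% of all genes. Commd1 had 43, 19 and 12 molecules and Copg2, next to Mest, 13, 8 and 4.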

How the data were processed

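BATSeq counts of 195 libraries were used as the authors deposited them: whole-number counts of UMIs (molecules) and of reads per polyadenylation site and cell, and molecules per gene for 107 cells, without normalization. Per the study's methods, reads were trimmed of terminal A stretches, aligned with GSNAP to GRCm38 and the spike-ins, and filtered for internal priming, and sites within 12 nt were merged. In the site tables the headings of a site's class and of its distance are swapped, and both were read by content. Gene identifiers were matched to symbols for 19321 of 19736 rows. Snrpn has an older identifier that the study pairs with it, and 86.3% of its molecules lay inside the annotated gene.

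Levels are molecules per 10000 on genes, antisense sites excluded. Ratios carry exact binomial counting intervals, and a count of 0 was set to 3 counts. Calls required 10 molecules and a fold of 2. Every imprinted gene in the table was named, in full with 20 molecules or more, and of the other lists up to 3 genes with the most molecules. The markers Fabp7, Pax6, Nanog, Tfcp2l1, Tfap2c, Elf5 and Cdx2 were chosen after their values were seen, as was the naming of all neuron markers. Cells were thinned once to 2000 molecules (seed 7). The Brennecke test was rewritten in Python and tested on simulated data, where it also made false calls in ESC-FCS. On such data the fold rule also passed unchanged genes. The genes and lists were chosen with earlier results of these data known. Software was Python 3.11.15, numpy 2.4.6, scipy 1.17.1, pandas 2.3.3 and matplotlib 3.10.9.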

Additional observations from a re-analysis of the deposited data

Results flagged for a closer look

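Usp29, a paternally expressed gene beside Peg3, had no row in the table of genes but had 46 molecules in the ESC-2i pools, 20 in one and 26 in the other, against 1 in the ESC-FCS pool. Plagl1, a zinc finger regulator of other imprinted genes, had no row there either and had 22 molecules in the ESC-2i pools, 8 and 14, and 1 in the ESC-FCS control cells. Both counts stand outside the single cells that the comparisons use and lie above the 3 counts that a 0 allows.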

How the results depend on the processing

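No paired analysis was possible because each population is 1 culture, no test between populations was made, and replicate numbers of single cells are wells. Of 49 alternative counts of genes past the fold, with both directions summed, 48 stayed within 1.5 times of the reported ones. Without ESC-FCS batch 1, 7 genes in place of 12 were past the fold between NSC and ESC-FCS, of 9 that met the minimum. A summed count does not show changes of direction or of the genes. Between ESC-FCS and ESC-2i, 8 genes were higher and 1 lower in the cells, against 7 and 5 in the libraries made apart. Of the 9 past the fold in the cells, 4 were again past it in the same direction there. The matching share over all genes was not computed. Of the variable genes, ESC-2i had 1 in place of 0 with a margin of 0, and ESC-FCS had 1 in place of 2 with a margin of 0.5, with all spike-in species, without batch 1 and with size factors from the molecules on genes; 22 other counts stayed within that range. Of 388 alternative log2 ratios of single genes, 3 of genes past the fold changed side: Ube3a between NSC and ESC-FCS to -0.12 with spike-in scaling, and, in the libraries made apart, Cdkn1c to -4.13 and Mcts2 to 0.99 between ESC-FCS and ESC-2i. The cause was not tested.

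Scaling to spike-ins moved the share of higher genes among all genes past the fold from 54.5 to 11.8% between NSC and ESC-FCS and from 49.5 to 34.0% between NSC and ESC-2i. With a minimum of 4 molecules 13 imprinted genes in place of 9 were past the fold between the media, where 16.0% of all genes were higher and 17.5% lower. Without ESC-FCS batch 1, 6 were, against 11.7% higher and 19.8% lower over all genes. Thinning to 1000 molecules left 11 of the 33 shares of cells outside the intervals given by 2000. With 1 to 3 molecules in a population the size of a ratio is barely limited upwards.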
